A study of Mus musculus with 14 samples.

Results

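The 10 genes described here mark the cells of the bile ducts and the immature liver cells that share many of their genes: Spp1, Bicc1, Prom1, Cldn7, Krt7, Krt19, Epcam, Sox9, Plet1 and Cd24a. They were taken by name from the authors' deposited table of knockout against control livers, where Plet1 stands under its older name 1600029D21Rik. All 10 were found, each with 1 probe set, among 12871 named genes. They were put together with the 5-week difference between the genotypes in view, so their own differences are given as a description, with no test.

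RNA came from livers of male mice at 5 weeks of age, on the C57/BL6J background as the series' design text spells it, and was hybridised to Affymetrix whole-transcript arrays. The knockout group held 2 samples with floxed miR-122 alleles and Alb-Cre, per the sample genotypes; Alb-Cre expresses Cre recombinase from the albumin promoter, which is active in hepatocytes and their fetal precursors. The control group held 2 samples with the same floxed alleles and no Cre named, although their titles say wild type. The series' design text instead describes a germ-line deletion at this age, and which of the 2 descriptions applies is not settled by the labels. Nothing in the labels says whether each sample came from a separate mouse. Another 10 samples from 8 weeks of age, 5 of each genotype, were not analysed here, because no table at hand gives gene names to their probe sets.

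Cholangiocytes, the epithelial cells lining the bile ducts, arise from the same embryonic precursors as hepatocytes. In an injured liver, ductular cells that carry biliary keratins, Sox9 and Epcam can spread out from the portal tracts, and hepatocytes can switch on some biliary genes themselves. miR-122 is the dominant microRNA of hepatocytes and represses many messenger RNAs that a mature hepatocyte keeps low.

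In knockout livers 8 of the 10 genes had both values above both control values, none had both values below, and the groups overlapped for 2, the keratins Krt7 and Krt19. Over all named genes, 32.1% had both knockout values above both control values and 27% had both below. As these genes were chosen on this contrast, nothing is read from that count. The median log2 difference, knockout minus control, was 1.345 over the 10 genes and 0.005 over all named genes, and 6 of the 10 were at least 2-fold higher in the knockout, as were 3.09% of all named genes. The livers were measured in bulk, so more cells of a type and more RNA per cell cannot be told apart.

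Spp1 encodes osteopontin, a secreted phosphoprotein that binds integrins and is made by bile duct cells and by activated macrophages. Its log2 signal was 11.11 and 11.28 in the knockout samples, against 7.81 and 8.11 in the control samples. Both knockout values lay far above both controls, with group means of 11.195 ± 0.120 and 7.96 ± 0.212 (SD, n = 2 each), a log2 difference of 3.235 or 9.42-fold. Markers of Kupffer cells and monocytes, another source of Spp1, were also higher in the knockout: the mean log2 level of all 13 was 9.14 and 8.93 in the knockout samples, against 7.88 and 7.99 in the control samples. Their part in the Spp1 difference was not tested.

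**Figure D1:**
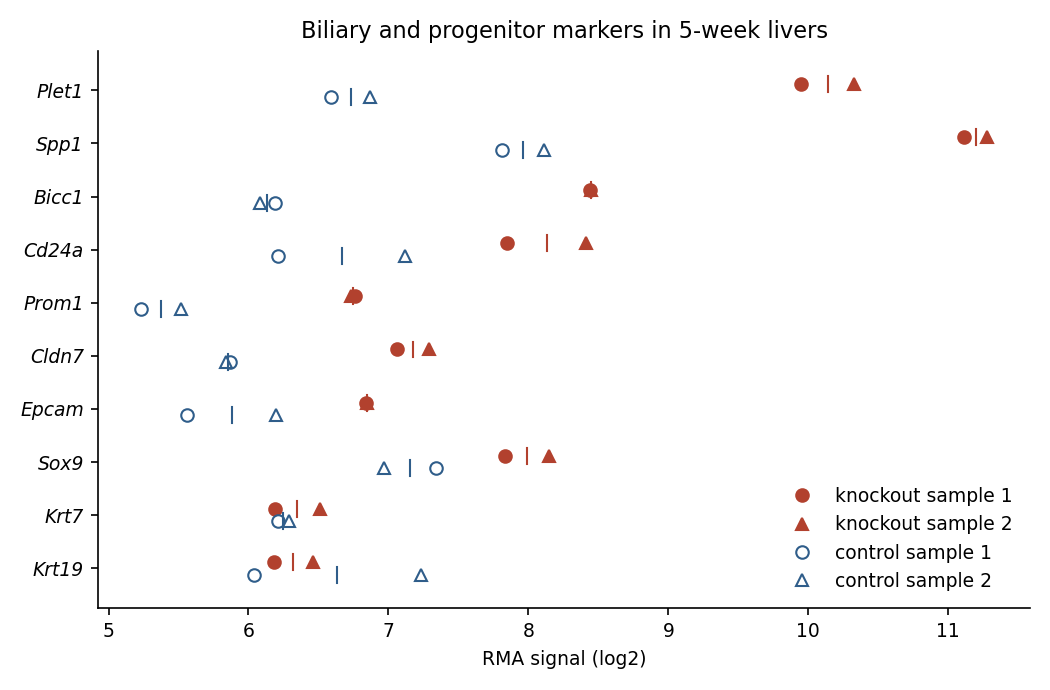
RMA signal on the log2 scale (x axis) of the 10 biliary and progenitor markers (rows, by size of difference) in each of the 2 knockout (filled) and 2 control (open) samples, with short lines at the group means. The knockout points lie to the right of both control points for every gene from Plet1 down to Sox9, and the groups overlap for Krt7 and Krt19.

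Among the surface proteins, Plet1 showed the largest difference of the 10. Plet1, or placenta-expressed transcript 1, is a membrane-anchored protein known in mice from epithelial progenitor cells. It had 9.95 and 10.33 in the knockout samples, against 6.59 and 6.87 in the control samples. The groups lay apart by far more than the spread within either, with means of 10.14 ± 0.269 and 6.73 ± 0.198 (SD, n = 2 each) and a log2 difference of 3.41, or 10.6-fold.

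Prom1, the membrane glycoprotein also known as CD133 and used to isolate progenitor cells, had 6.76 and 6.73 in the knockout samples, against 5.23 and 5.52 in the control samples. The 2 knockout values were nearly equal, and the log2 difference was 1.37, or 2.58-fold. Both control values lay below the median signal of each array, so the difference may be understated.

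Epcam and Cldn7 encode proteins that bind each other at the side membranes of epithelial cells, Epcam as an adhesion molecule and Cldn7 as a claudin of cell junctions. Epcam had 6.84 and 6.85 in the knockout samples, against 5.56 and 6.20 in the control samples. Its knockout values matched while its control values lay 0.64 apart, and the log2 difference was 0.965, or 1.95-fold. Cldn7 had 7.06 and 7.29 in the knockout samples, against 5.87 and 5.84 in the control samples. Here the controls matched closely, and the log2 difference was 1.32, or 2.50-fold. Both control values of Cldn7 and the first control value of Epcam lay below the median signal of each array, so these differences may be understated.

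Cd24a, a small, heavily glycosylated and lipid-anchored surface protein, marks biliary and progenitor cells but also B cells, neutrophils and red cell precursors. Its values were 7.85 and 8.41 in the knockout samples, against 6.21 and 7.12 in the control samples. Both groups were wide, with means of 8.13 ± 0.396 and 6.665 ± 0.643 (SD, n = 2 each), and the lower knockout value stood 0.73 above the higher control value. The log2 difference was 1.465, or 2.76-fold. The mean log2 level of the 4 measured neutrophil markers, of 8 in the list, was 6.74 and 6.33 in the knockout samples, against 5.65 and 5.395 in the control samples. For the 6 measured lymphocyte markers, of 11, it was 6.75 and 6.44 in the knockout samples and 6.23 and 6.26 in the control samples. Erythroid markers, 5 of 7 measured, overlapped between the genotypes, at 9.20 and 9.81 in the knockout samples and 9.50 and 9.13 in the control samples. In both genotypes the sample with more Cd24a was the second. The erythroid level was higher in the second knockout sample and lower in the second control sample. The neutrophil level was lower in the second sample of both genotypes. The lymphocyte level was lower in the second knockout sample and nearly equal in the controls. With 2 samples a genotype, nothing is read from these orders. The part of these blood cell markers in the Cd24a difference was not tested.

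Bicc1 and Sox9 act inside the cell. Bicc1 is an RNA-binding protein whose loss gives kidney and bile duct cysts in mice. Its values were 8.44 and 8.45 in the knockout samples, against 6.19 and 6.08 in the control samples. The samples of each genotype lay close together, and the log2 difference was 2.31, or 4.96-fold.

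Sox9, the transcription factor that marks the first bile duct cells of the embryo, had 7.83 and 8.15 in the knockout samples, against 7.34 and 6.97 in the control samples. The groups did not overlap, but the gap between them was of the order of the spread within each. Its log2 difference was 0.835, or 1.78-fold, the smallest among the 8 genes whose groups lay apart.

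The keratins Krt7 and Krt19, type II and type I intermediate filament proteins that pair in bile duct epithelium, did not share the shift. Krt7 had 6.19 and 6.51 in the knockout samples, against 6.21 and 6.29 in the control samples. The control values lay between the knockout values, and the log2 difference was 0.10. Krt19 had 6.18 and 6.46 in the knockout samples, against 6.04 and 7.23 in the control samples. The knockout values lay between the control values, and the log2 difference was -0.315. All Krt7 values, and all Krt19 values but that of the second control sample, were only a little above the median signal of each array. Whether these probe sets read above background was not tested, so a shift in either keratin may have been missed. With 2 samples a group and a control SD of 0.841, a difference in Krt19 of the size seen for Epcam or Sox9 was not detectable here.

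The second control sample was higher than the first for 7 of the 10 genes, against 44% of all named genes. The second knockout sample was higher than the first for 9 of the 10, and the share over all named genes was not computed. Of the 10 genes, 3 differed by at least 0.5 between the controls: Krt19 by 1.19, Cd24a by 0.91 and Epcam by 0.64. Among all named genes, 4.97% had control values at least 0.5 apart. The direction for Krt19 depended on the control sample: the knockout mean minus the first control was 0.28, and minus the second control -0.91. For Epcam the difference was 1.285 against the first control and 0.645 against the second, and for Cd24a it was 1.92 against the first and 1.01 against the second. Bicc1, Cldn7, Krt7, Plet1, Prom1 and Spp1 moved by at most 0.30 with the choice of control. The plot of the difference from each control sample shows these values for all 10 genes.

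**Figure D2:**
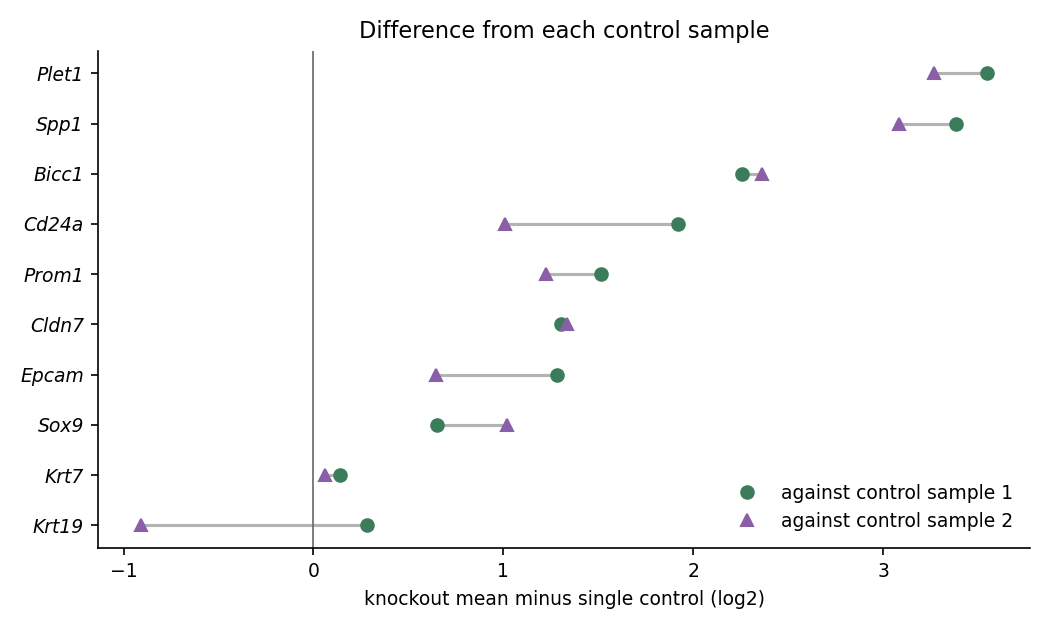
Knockout mean minus a single control sample (x axis, log2) for each of the 10 genes, against control sample 1 (circles) and control sample 2 (triangles). Krt19 lies at 0.28 against the first control and at -0.91 against the second, while the 8 genes above Krt7 stay to the right of 0 against either control.

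Genes of the other lists used here that were at least 1 higher in the second control sample than in the first were Muc1, Acta2, Ctrb1 and Rab25, named after their values were seen. Of all named genes, 0.668% (86 genes) had such a gap. Muc1, a mucin of duct and gallbladder epithelium, had 6.88 and 6.94 in the knockout samples, against 5.69 and 7.86 in the control samples. Acta2, the actin of smooth muscle and activated stellate cells, had 7.46 and 7.47 in the knockout samples, against 6.72 and 8.68 in the control samples. Ctrb1, a digestive enzyme precursor of the exocrine pancreas, had 5.87 and 5.88 in the knockout samples, against 5.74 and 7.32 in the control samples. For Muc1, Acta2 and Ctrb1 the knockout samples lay between the controls and within 0.06 of each other. The mean level of the 3 measured pancreas markers, of 8 listed, was 6.16 and 6.14 in the knockout samples, against 6.18 and 6.75 in the control samples. Ctrb1 is 1 of the 3 and makes most of that control gap. In the control samples Cela1 had 6.61 and 6.42, and Cela2a had 6.19 and 6.50. Mesothelial cells also carry Krt7 and Krt19, and the mean level of their 6 markers was 6.01 and 6.17 in the knockout samples, against 6.17 and 6.205 in the control samples. The part of other tissue in the second control sample was not tested.

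**Figure D3:**
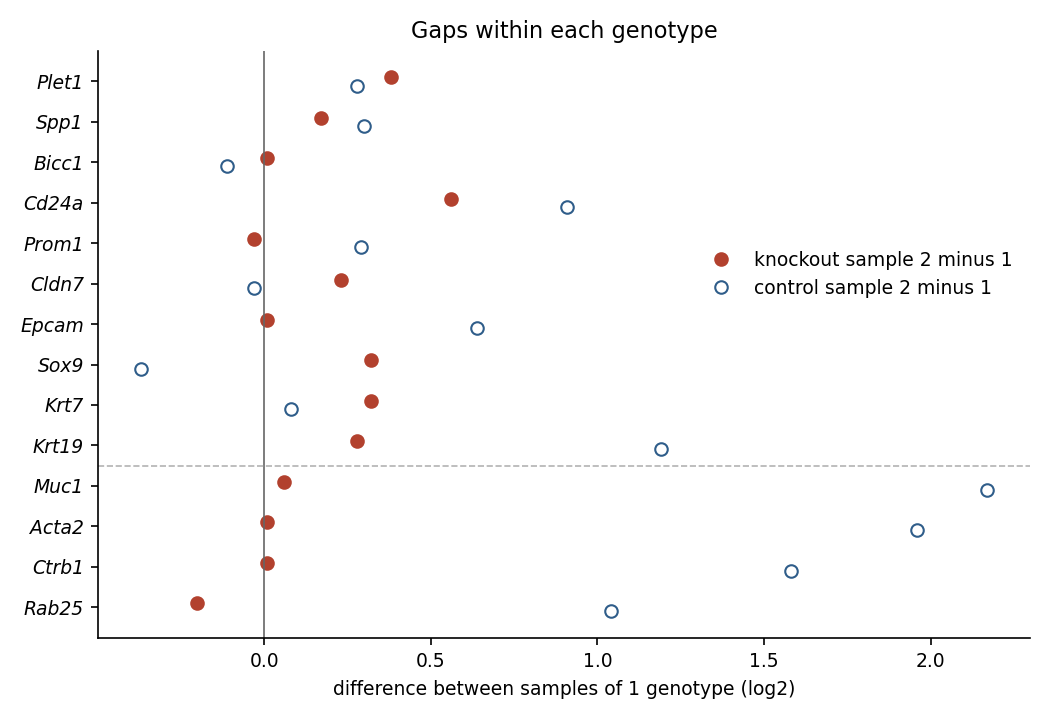
Difference between the 2 samples of one genotype (second minus first, x axis, log2) for knockout (filled) and control (open) samples, for the 10 genes and, below the dashed line, Muc1, Acta2, Ctrb1 and Rab25. The control gap reaches 1.19 for Krt19 and 2.17 for Muc1, while the knockout gaps stay between -0.20 and 0.56.

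Promoter sequences from RefSeq (GRCm38.p6) were at hand for 6 of the 10 genes: Plet1, Spp1, Prom1, Cldn7, Epcam and Krt7. The 250 bases before the annotated start are shown for the pair of genes with the largest differences, for Prom1, and for Krt7, whose groups overlapped. Capitals mark matches, on either strand, to 6 short motifs, each spelled out where it is described. No matches overlap in the windows shown.
Plet1, chr9:50494275-50494524, plus strand: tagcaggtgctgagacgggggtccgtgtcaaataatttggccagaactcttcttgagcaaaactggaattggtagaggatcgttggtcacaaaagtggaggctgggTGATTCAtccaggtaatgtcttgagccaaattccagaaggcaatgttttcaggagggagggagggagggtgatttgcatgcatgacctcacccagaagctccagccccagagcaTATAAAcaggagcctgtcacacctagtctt
Spp1, chr5:104434861-104435110, plus strand: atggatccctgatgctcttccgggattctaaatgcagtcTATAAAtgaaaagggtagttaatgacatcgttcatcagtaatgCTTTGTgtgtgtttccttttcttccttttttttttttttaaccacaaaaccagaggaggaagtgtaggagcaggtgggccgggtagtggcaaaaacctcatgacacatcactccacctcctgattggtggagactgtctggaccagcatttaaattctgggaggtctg
Prom1, chr5:44101737-44101986, minus strand: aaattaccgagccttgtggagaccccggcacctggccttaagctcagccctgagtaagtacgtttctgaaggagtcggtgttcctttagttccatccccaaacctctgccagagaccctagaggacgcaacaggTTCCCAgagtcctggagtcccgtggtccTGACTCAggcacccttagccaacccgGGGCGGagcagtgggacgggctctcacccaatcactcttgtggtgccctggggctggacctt
Krt7, chr15:101412153-101412402, plus strand: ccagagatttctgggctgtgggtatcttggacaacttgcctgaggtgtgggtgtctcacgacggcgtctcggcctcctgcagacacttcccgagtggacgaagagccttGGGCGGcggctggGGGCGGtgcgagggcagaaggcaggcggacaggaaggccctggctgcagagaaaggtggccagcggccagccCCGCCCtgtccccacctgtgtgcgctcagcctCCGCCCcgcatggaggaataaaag
The Plet1 window holds a TATA box, searched as TATAAA, at bases -30 to -25 from the start. It also holds a motif of the AP-1 transcription factors, searched as TGANTCA, at bases -144 to -138. Prom1 holds the AP-1 motif at -88 to -82 in the window shown, and again at -189 to -183 before its other annotated start. The AP-1 letters occur in 6.75% of 32851 promoter windows of the same length, and the TATA box letters in 12.4%. Spp1 holds TATA box letters only far from the start, at -211 to -206. A SOX motif, searched as ACAAAG and found in 16.5% of windows, lies at -168 to -163 of Spp1 on the other strand. The Krt7 window is the richest in G and C of the 4, at 66%, against 50% for Plet1, 43.6% for Spp1 and 59.2% for Prom1. It holds 4 GC boxes, searched as GGGCGG and found in 32.7% of windows, and the Prom1 window holds 1. The letters of the Notch effector RBPJ, searched as TGGGAA and found in 21.6% of windows, lie once in the Prom1 window, at -116 to -111. TEAD letters, searched as GGAATG and found in 12.6% of windows, are in none of the 4 windows shown. These matches describe the sequence only; no binding was measured.

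Other genes of biliary and progenitor cells, and the receptors of osteopontin, were read from 5 lists, with a test that was not limited to the 10 genes. In a limma fit over all 35556 probe sets, no probe set passed an adjusted p under 0.05 in either direction (Benjamini-Hochberg, 0% called), the smallest adjusted p was 0.0524, and 5640 had an unadjusted p under 0.05. When the limma fit was limited to the 14908 probe sets with 1 gene symbol, knockout values were higher for 1311 (8.79%) and lower for 497 (3.33%) at that threshold. Per gene these were 9.66% higher and 3.36% lower. The probe sets of the limited fit are those the authors listed for this same contrast, by a rule that is not stated. Of the named genes, 3.09% were at least 2-fold higher in the knockout, against 1.47% of all probe sets. Control values lay at least 0.5 apart for 4.97% and 12.2%. How far this selection shaped the calls was not tested. The counts, SE and adjusted p-values below are those of the limited fit, which was taken for them after the fit over all probe sets was seen to call nothing. None of these genes passed in the fit over all probe sets, where the named genes that passed in the limited fit had adjusted p-values of 0.0632 to 0.168.

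Of 18 measured genes of biliary epithelial structure, from 22 listed, 10 passed in the limited fit as higher and none as lower. Their median log2 difference was 0.67. Of the 18, 12 had both knockout values above both controls while 2 had both below, against 32.1% and 27% of all named genes. The largest difference was that of Cdh1, the adhesion molecule E-cadherin, with 9.71 and 9.74 in the knockout samples against 7.82 and 8.14 in the control samples (log2 difference 1.745 ± 0.136 SE, adjusted p = 0.00534 by limma). Krt23, a keratin switched on in stressed and ductular liver cells, was higher by 1.41 ± 0.163 (adjusted p = 0.00923 by limma), and the claudins Cldn4 and Cldn6 were higher by 0.905 ± 0.105 and 0.765 ± 0.111 (adjusted p = 0.00925 and 0.0156 by limma). Krt8 and Krt18, the keratin pair that hepatocytes and bile duct cells both have, were higher by 0.88 ± 0.164 and 0.625 ± 0.132 (adjusted p = 0.0275 and 0.0385 by limma). Krt8, Krt18 and Krt23 thus passed in the limited fit, while Krt7 and Krt19 overlapped between the genotypes; whether the keratins differ from each other in this was not tested.

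Of the 17 measured regulators of biliary and progenitor cells, from 19 listed, 5 passed as higher and none as lower, with a median log2 difference of 0.35. Both knockout values lay above both controls for 10 of them and below for 3, against 32.1% and 27% of all named genes. These 3 were Onecut1, Lgr5 and Yap1, named after their values were seen, and they differed by -0.66, -0.43 and -0.115 without passing (adjusted p = 0.133, 0.0738 and 0.526 by limma). Elf3, an epithelial transcription factor, had 6.61 and 7.08 in the knockout samples against 5.28 and 5.22 in the control samples, a difference of 1.595 ± 0.171 (adjusted p = 0.00794 by limma). Tnfrsf12a, the receptor through which the cytokine TWEAK makes progenitor cells divide, was higher by 1.045 ± 0.188 (adjusted p = 0.0256 by limma). Sox4, a relative of Sox9 that acts with it in bile duct formation in mice, was higher by 0.895 ± 0.166 (adjusted p = 0.0274 by limma).

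In the list of cilium and cystic disease genes, to which Bicc1 is linked by its mutant phenotype, 3 of 10 measured members passed as higher and none as lower, from 12 listed. The median was 0.097, close to that of all genes. Of all named genes, 9.66% passed as higher and 3.36% as lower. Both knockout values lay above both controls for 4 of the 10 listed genes measured and below for none, against 32.1% and 27% of all named genes. The groups overlapped for the remaining 6. Pkhd1, the gene of recessive polycystic kidney and liver disease, was higher by 0.975 ± 0.098 (adjusted p = 0.00688 by limma), with 7.32 and 7.37 in the knockout samples against 6.36 and 6.38 in the control samples. Glis3 was higher by 0.975 ± 0.129 (adjusted p = 0.013 by limma), and Pkd2, a calcium channel of the primary cilium, by 0.61 ± 0.117 (adjusted p = 0.0297 by limma).

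Ion transport and secretion genes of the bile duct had 1 of 9 measured genes that passed as higher and none as lower, from 12 listed, with a median of 0.325. It was Slc5a1, a sodium-coupled glucose transporter, at 1.325 ± 0.166 (adjusted p = 0.0115 by limma). Of all named genes, 9.66% passed as higher and 3.36% as lower, so 1 of 9 is near that share. Both knockout values lay above both controls for 5 of the 9 genes and below for 2, against 32.1% and 27% of all named genes. The 2 were Pigr and Slc12a2, named after their values were seen. Pigr, the receptor that carries immunoglobulin A into bile, had 9.84 and 8.41 in the knockout samples against 10.70 and 11.45 in the control samples. Its difference of -1.95 ± 0.492, the largest in size in this list, did not pass (adjusted p = 0.0607 by limma), nor did that of -0.415 for Slc12a2, a chloride cotransporter (adjusted p = 0.0793 by limma). Cftr, the chloride channel of bile secretion, had no named probe set here. Among the 8 osteopontin receptors 1 passed as higher and none as lower, also near the share of all named genes, with a median of 0.37. Both knockout values lay above both controls for 6 of these 8 and below for none, against the same 32.1% and 27%. Itga4, an integrin chain, was higher by 0.915 ± 0.196 (adjusted p = 0.0397 by limma), while Cd44, the hyaluronan receptor that also binds osteopontin, differed by 1.07 ± 0.261 without passing (adjusted p = 0.0559 by limma).

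**Figure D4:**
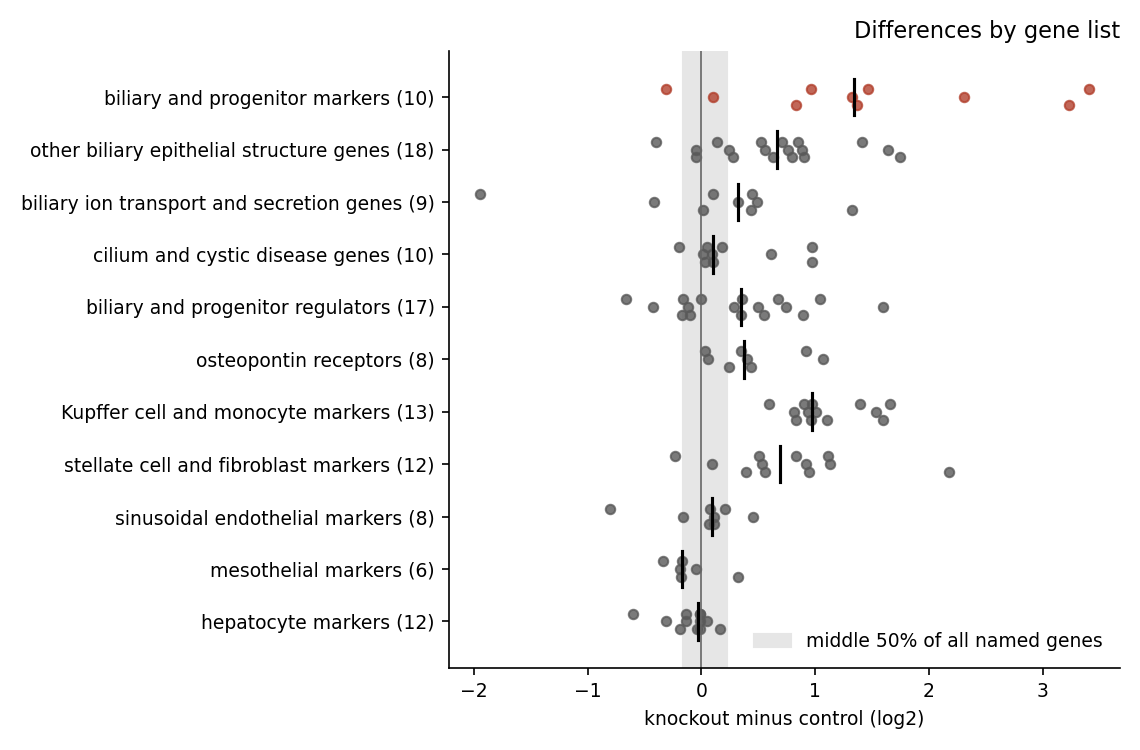
Log2 difference, knockout minus control (x axis), of each measured gene (points) in the 10 biliary and progenitor markers and in lists of related genes and of markers of other cells, with the number of genes in brackets, the list median (line) and the middle 50% of all named genes (-0.16 to 0.225, grey). The Kupffer cell and monocyte markers lie around 0.97 and the hepatocyte markers around 0.

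Markers of other cells of the liver also differed, in the same limited fit. Of 13 Kupffer cell and monocyte markers 12 passed as higher, with a median of 0.97, and Lyz2, with the smallest p of the list, differed by 1.595 ± 0.139 (adjusted p = 0.00548 by limma). Of 12 stellate cell and fibroblast markers 7 passed as higher and none as lower, with a median of 0.695, and Lum led at 2.175 ± 0.173 (adjusted p = 0.00534 by limma). Of the measured neutrophil, lymphocyte and erythroid markers, 3 of 4, 1 of 6 and 0 of 5 passed as higher. Among 8 markers of sinusoidal endothelium 1 passed as lower and none as higher: Lyve1, a hyaluronan receptor, differed by -0.80 (adjusted p = 0.0178 by limma). None of the 3 measured pancreas or 6 mesothelial markers passed. None of the 12 hepatocyte markers passed either, with a median of -0.03 and Alb at -0.01. Asgr1, with the smallest p of that list, differed by -0.60 (adjusted p = 0.0525 by limma). Both knockout values lay below both controls for 4 of the 12 and above for 1, against 27% and 32.1% of all named genes. At an unadjusted p under 0.05, 2 of these hepatocyte markers were lower and none higher, as 1 of 6 mesothelial markers was lower and none higher. Of all named genes, 8.41% were lower and 16.3% higher at that level.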

How the data were processed

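Per the submitters' processing notes, the authors made the deposited values with Affymetrix Expression Console and RMA, which corrects background, normalizes by quantiles and gives a log2 signal per probe set. Software versions and the genome build are not stated. For the 4 samples at 5 weeks the value table has 35556 probe sets, with array medians of 5.92 to 5.96. Gene names came from the authors' table of 14996 probe sets, updated through RefSeq symbols of GRCm38.p6 (accession 13056, symbol 987, synonym 485, own name kept 380). Probe sets with several symbols (88) stayed unnamed. That table's log2 means equalled the genotype means computed here within 0.005. It lists a selection of probe sets, and in each of them the higher group mean was at least 4.94; how they were selected is not stated. Its 4 columns of single arrays match no sample label and were not used. Planned fits of the 8-week samples were left out, as their probe sets have no gene names here and so bear on no member.

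Knockout was set against control with limma 3.58.1 in R 4.3.3 (lmFit, eBayes), over all probe sets, after a test on simulated data. Benjamini-Hochberg adjusted p-values under 0.05 were called. That fit was chosen as the main one and called nothing. The fit limited to probe sets with 1 gene symbol was run as an alternative to it. It was taken for the gene lists after the main fit was seen to call nothing. P-values measure the spread between these samples, which may be technical. A gene with several probe sets was represented by the brightest. Named list genes were those with the smallest p of each list, up to 4 that passed in the fit limited to probe sets with 1 gene symbol (this extension was added after the values were seen), and Krt8, Krt18, Cd44 and Alb; 1 further gene of that rule and 1 motif are not reported here. The 10 genes, the lists and the motifs were chosen with earlier results of these data known. The number of arrays limits the precision.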

Additional observations from a re-analysis of the deposited data

How the results depend on the processing

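In the fit over all probe sets no probe set passed, either way. By limma, 1311 were higher and 497 lower when only probe sets with 1 gene symbol were fitted, 1042 and 412 without dim probe sets (mean below the median probe set), 347 and 89 with an intensity trend and robust eBayes, and 49 and 7 after median centring. Of the genes in the 5 lists of biliary genes and osteopontin receptors, 0 passed over all probe sets. Of these genes, 20 were higher with 1 gene symbol, 15 without dim probe sets and 5 with the trend, and none was lower. Quantile normalization and the replicate number as a replicate block gave 0 calls, as did leaving out any 1 sample (0 to 0). These were run over all probe sets only, so whether the calls of the limited fit depend on 1 sample was not tested. When a sample was left out, the lone sample of its genotype was assumed to vary like the others. Same-numbered samples deviated together with a correlation of 0.095 and share only a number. Quantile normalization and median centring moved the difference of none of the 10 genes by more than 0.047, and the other fits on all 4 samples use the same differences. Leaving out 1 sample gave Krt19 differences of -0.91 to 0.28 and Krt7 of -0.06 to 0.26. RMA values carry no detection call, so differences of genes near background may be understated. The alternatives planned for 8 weeks were not run.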
